A study of Mus musculus with 8 samples.

Results

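The genes described here encode the oxygen-sensing machinery of the cell: the subunits of the hypoxia-inducible factors (HIF) and the enzymes and ubiquitin ligase subunit that control them. The set holds 9 genes of the 22180 with a probe set of their own on the arrays, namely Hif1a, Epas1, Hif3a, Arnt, Egln1, Egln2, Egln3, Hif1an and Vhl. They were picked by name, and each was read on the probe set with the highest mean over the 8 arrays among those annotated to that gene alone. Of the 9 genes, 8 were bright enough to be tested and Hif3a was not. The cells were wild-type dendritic cells grown from the bone marrow of female C57BL/6 mice with GM-CSF (granulocyte-macrophage colony-stimulating factor) at 20 ng/ml for 7 days at 21% oxygen and purified on CD11c beads. All cultures then spent 2 days at 2% oxygen with GM-CSF. For 6 further hours 4 cultures received SCF (stem cell factor, which binds the receptor Kit) at 100 ng/ml, and 4 were left in medium. Each of the experiments BC, D2, E and I supplied 1 culture of either kind from the same purified cells. No array of cells kept at 21% oxygen was analysed here, so the levels below describe hypoxic cells only and hold no response to oxygen. How many mice supplied the marrow of an experiment is not given in the sources used here.

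HIF is a dimer of an oxygen-regulated alpha subunit and the constitutive partner ARNT. With oxygen present, the prolyl hydroxylases encoded by the Egln genes mark the alpha subunit, the VHL protein recognises the mark, and the subunit is ubiquitinated and degraded. The asparaginyl hydroxylase encoded by Hif1an, known as FIH, separately blocks the binding of coactivators. Under low oxygen these steps slow down, the alpha subunit accumulates and HIF binds its target genes, among which are Egln1 and Egln3 themselves. In dendritic cells and macrophages HIF is known for its part in glycolysis, migration and cytokine production. Because the alpha subunits are controlled largely through protein stability, their RNA does not report their protein, and the arrays measured RNA alone.

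No change with SCF was detectable in the 8 tested genes, whereas 2 of the hydroxylase genes, Egln3 and Egln1, differed between the experiments. Both were lowest in experiment BC, on the SCF array and on the medium array alike. Egln3 stood there at 0.354-fold and Egln1 at 0.678-fold of the mean of the other 3 experiments. The transcripts of Hif1a, Epas1, Arnt, Egln2, Hif1an and Vhl spanned between 1.11-fold and 1.42-fold from the lowest to the highest of the 8 arrays, against 5.49-fold for Egln3 and 1.77-fold for Egln1. Of the 12668 probe sets tested, 1 had a wider range than Egln3 and 398 a wider range than Egln1. Levels are log2 intensities throughout, and the levels of different genes are not set against each other, because probe sets differ in their response.

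**Figure D1:**
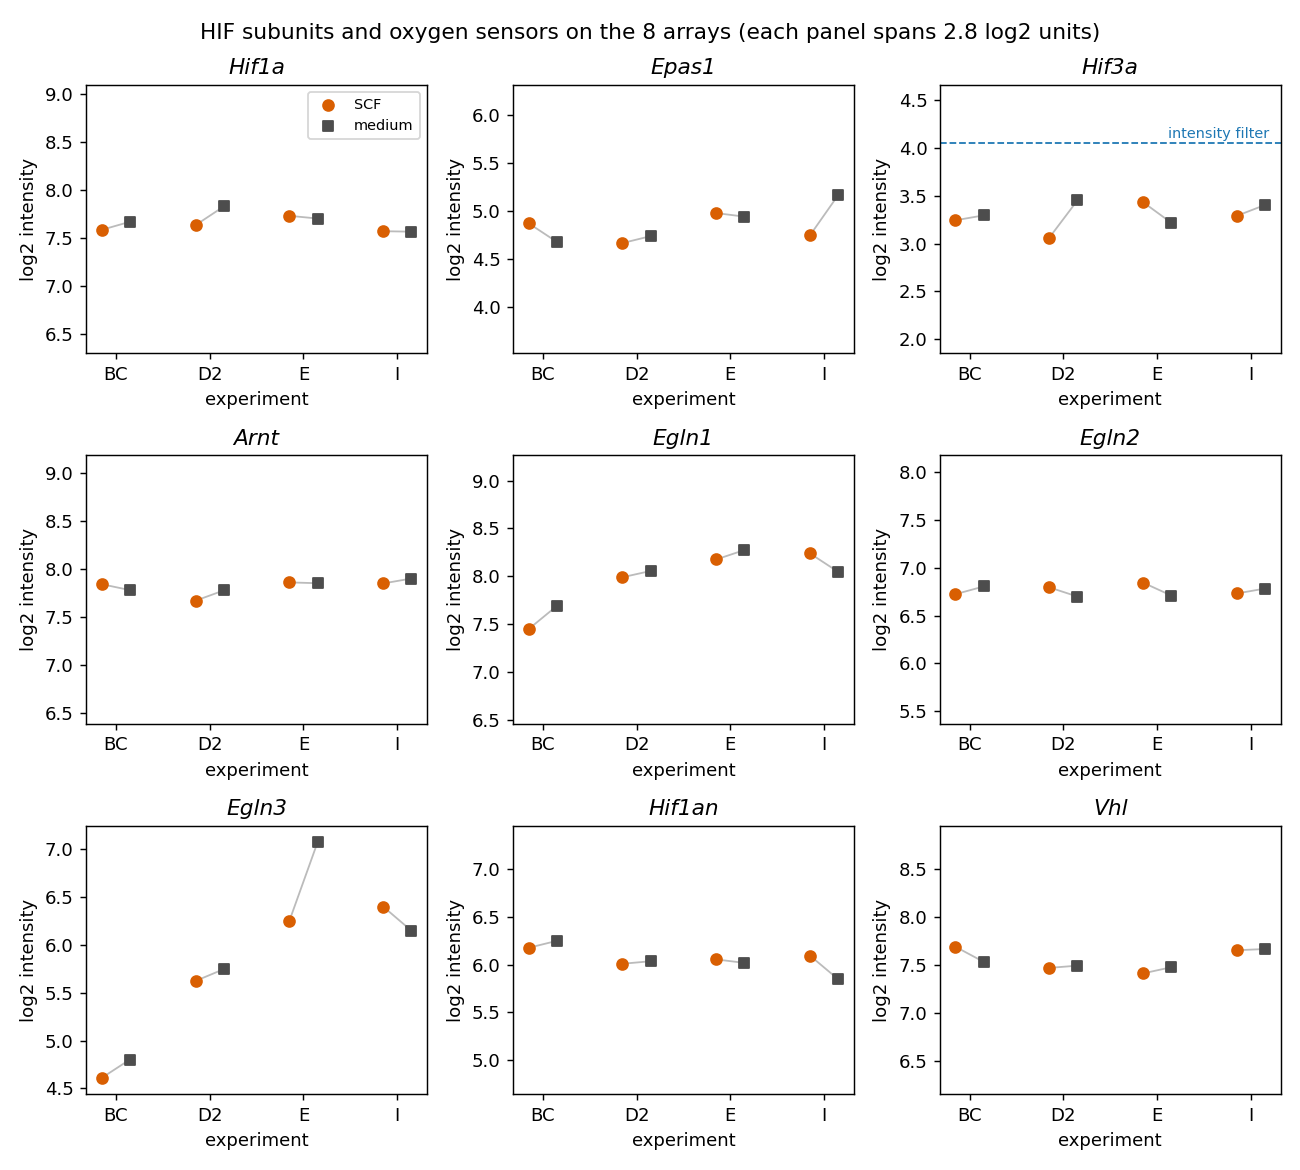
Log2 intensity of the 9 genes on each array, with experiments along the horizontal axis, SCF arrays as orange circles and medium arrays as grey squares, and a line joining the arrays of an experiment. Every panel spans the same number of log2 units. Egln3 and Egln1 are lowest in BC on both arrays, while Hif3a lies below the dashed intensity filter at 4.05 on all 8 arrays.

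Among the alpha subunits, Hif1a (probe set 17276328), the most widely expressed of them, read 7.59, 7.64, 7.73 and 7.57 on the SCF arrays of BC, D2, E and I, and 7.67, 7.83, 7.70 and 7.57 on the medium arrays in the same order. The groups overlapped, and both arrays of I were the lowest. Its fitted change with SCF was −0.06 (SE 0.06, 95% interval −0.20 to 0.07, limma adjusted p = 0.945), and 2 of the 4 experiments lay on each side of 0. The means of Hif1a over the arrays of an experiment lay between 7.57 in I and 7.73 in D2, and the 95% interval of every step between neighbours in that order included 0. A second probe set of Hif1a was dim, between 3.34 and 3.62 on the 8 arrays, and another, shared with the pseudogene S100a11-ps, lay between 3.74 and 4.19 and was not used. The Hif1a values therefore rest on 1 probe set.

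Epas1 (probe set 17340197) encodes HIF-2 alpha, the subunit known from endothelium and also from macrophages. It read 4.87, 4.67, 4.98 and 4.75 with SCF in BC, D2, E and I, against 4.68, 4.74, 4.94 and 5.17 in medium. The highest array was the medium array of I and the lowest the SCF array of D2, and the groups overlapped. It differed with SCF by −0.07 (SE 0.10, 95% interval −0.29 to 0.16, limma adjusted p = 0.963). It was uneven, with 0.19 in BC and −0.42 in I, and turned to 0.05 when I was left out. Of the endothelial and stromal markers, 7 of 10 lay below the intensity filter, among them Pecam1, Kdr and Tek. The endothelial genes Vwf, at 5.82 with SCF and 5.93 in medium, and Cdh5, at 5.25 with SCF and 5.23 in medium, passed it, as did the stromal collagen gene Col3a1. The part of these cells in the Epas1 signal was not tested.

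Hif3a (probe set 17487001), whose splice forms include inhibitors of the other alpha subunits, was dim on every array. It read 3.24, 3.06, 3.43 and 3.29 with SCF and 3.29, 3.45, 3.22 and 3.40 in medium, all below the filter of 4.05. Its SCF minus medium difference averaged −0.08 ± 0.25 (SD, n = 4 experiments) and was not tested. The arrays carry no detection call, so whether Hif3a was expressed at all is unknown.

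Arnt (probe set 17400339), the shared partner of all alpha subunits, was steady. It read 7.84, 7.67, 7.86 and 7.85 with SCF in BC, D2, E and I, against 7.78, 7.78, 7.85 and 7.90 in medium. The SCF array of D2 was the lowest of the 8, and the groups overlapped. It differed with SCF by −0.02 (SE 0.05, 95% interval −0.15 to 0.10, limma adjusted p = 0.981), and the means of the experiments lay within 0.15 of each other.

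The prolyl hydroxylases parted. Egln1 (probe set 17514135) encodes PHD2, the main HIF prolyl hydroxylase in most cells. It read 7.45, 7.99, 8.18 and 8.24 with SCF in BC, D2, E and I, against 7.69, 8.06, 8.27 and 8.05 in medium. Both BC arrays lay below all of the other 6, while SCF and medium arrays overlapped. The change with SCF was −0.05 (SE 0.07, 95% interval −0.23 to 0.12, limma adjusted p = 0.960), lower in 3 of 4 experiments, and it turned to 0.01 without BC.

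Egln2 (probe set 17488122) encodes PHD1, which is not known as a hypoxia-induced gene. Its values were 6.72, 6.79, 6.84 and 6.73 with SCF and 6.80, 6.70, 6.71 and 6.78 in medium. The groups overlapped, and the lowest and the highest array differed by 0.15. Egln2 had the narrowest range of the 9 genes. The change with SCF was 0.02 (SE 0.06, 95% interval −0.11 to 0.16, limma adjusted p = 0.980).

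Egln3 (probe set 17281084) encodes PHD3, a hydroxylase that is itself strongly induced by HIF in many cell types. It read 4.61, 5.62, 6.25 and 6.40 with SCF in BC, D2, E and I, against 4.80, 5.74, 7.07 and 6.15 in medium. Both BC arrays were the lowest of the 8, and the medium array of E was the highest. Its change with SCF was −0.22 (SE 0.15, 95% interval −0.57 to 0.13, limma adjusted p = 0.945), lower in 3 of 4 experiments. That value rested on E, where the arrays differed by −0.82, and it was −0.02 without E and −0.38 without I.

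Hif1an (probe set 17359716), the gene of FIH, read 6.17, 6.01, 6.05 and 6.09 with SCF and 6.25, 6.03, 6.02 and 5.85 in medium. Both BC arrays were the highest of the 8, the opposite of Egln1 and Egln3. The change with SCF was 0.05 (SE 0.07, 95% interval −0.11 to 0.20, limma adjusted p = 0.960). Vhl (probe set 17461798), the substrate-binding subunit of the ubiquitin ligase, read 7.69, 7.47, 7.42 and 7.66 with SCF, against 7.54, 7.50, 7.48 and 7.67 in medium. It differed with SCF by 0.01 (SE 0.06, 95% interval −0.12 to 0.15, limma adjusted p = 0.992). In both genes SCF and medium arrays overlapped.

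The comparison of SCF with medium asked whether 6 hours of SCF altered the oxygen-sensing genes of cells already in hypoxia. In limma, with arrays paired by experiment, 0 of the 8 tested genes passed at an adjusted p of 0.05 and 0 were under an unadjusted p of 0.05. The background was the same, since 0% of the 12668 probe sets tested were called, with 533 of them under an unadjusted p of 0.05. Fitted changes of the 8 genes lay between −0.22 for Egln3 and 0.05 for Hif1an, with 5 below 0 and 3 above 0 and a median of −0.04, against a median of 0.00077 over all probe sets tested. All 8 limma intervals lay within 1.5-fold in both directions. The widest was that of Egln3, from 0.674-fold to 1.09-fold. With the prior, limma lowered the residual SD of Egln3 from 0.31 to 0.21, so its own arrays alone would give a wider interval. Its difference in E, −0.82, lay beyond 1.5-fold, so a change of that size in Egln3 is not excluded. None of the 8 genes had the same sign in all 4 experiments. The sign turned when 1 experiment was left out for Epas1 (without I), Arnt (without D2), Egln1 (without BC), Egln2 (without E), Hif1an (without I) and Vhl (without BC). Without D2 the change of Hif1a was −0.02.

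**Figure D2:**
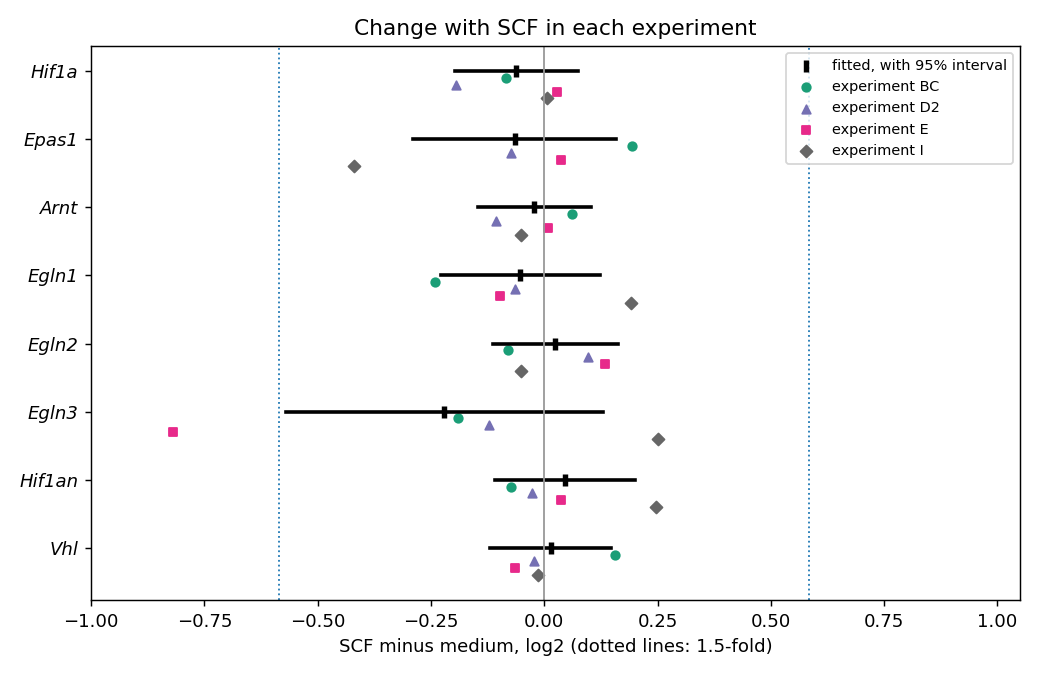
Change with SCF (SCF minus medium, log2) of the 8 tested genes, with the fitted value and its 95% interval as a black bar and the difference in each experiment as a coloured mark. All intervals include 0 and lie between the dotted lines at 1.5-fold, and the mark farthest from 0 is Egln3 in experiment E at −0.82.

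The comparison between experiments asked how far separately run cultures differed in these genes under the same protocol. Egln3 and Egln1 differed between the experiments beyond the spread within them (limma F over the 4 experiments, adjusted for SCF, adjusted p = 0.0201 and 0.0485). These are 2 of 8 genes tested, against 3.35% of all probe sets. The other 6 had adjusted p-values between 0.267 for Vhl and 0.991 for Egln2. The F compares experiments with the spread between the arrays of 1 experiment, which come from the same purified cells. It therefore describes these 4 cell preparations and whatever they shared in culture, extraction and hybridisation, which cannot be told apart.

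For Egln3 the order of the experiment means was 4.71 in BC, 5.68 in D2, 6.27 in I and 6.66 in E, a span of 3.87-fold. The step between D2 and BC was 0.98 (95% interval 0.48 to 1.47) and that between I and D2 was 0.59 (0.09 to 1.08), while the step between E and I, 0.39 (−0.11 to 0.88), did not exceed its spread. Egln1 had the same order, with 7.57 in BC, 8.02 in D2, 8.14 in I and 8.23 in E. Its step between D2 and BC was 0.45 (95% interval 0.21 to 0.70), and the steps above it, 0.12 and 0.08, had intervals that included 0.

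Each experiment was then set against the mean of the other 3 in the same fit. In BC, Egln3 was lower, at a mean of 4.71 against 6.20 in the other 3 (95% interval of the difference −1.90 to −1.10, SE 0.17, limma adjusted p = 0.0140). Egln1 was lower there by 0.56, at 7.57 against 8.13 (SE 0.09, limma adjusted p = 0.0307). These are 2 of 8 genes, where 1.14% of all probe sets were lower in BC and 1.2% higher. In E, Egln3 was higher by 1.11, at 6.66 against 5.55 (SE 0.17, limma adjusted p = 0.0355), where 0.892% of all probe sets were higher. The arrays of E overlapped the rest, since its SCF array (6.25) lay below the SCF array of I (6.40). Only its medium array (7.07) stood above all others. A low value in BC lowers the mean against which the other experiments are set, and without BC the difference of Egln3 in E was 0.68 (limma adjusted p = 0.251). That call was also lost without D2 (adjusted p = 0.0519) and with no intensity filter (0.0503). Egln1 was 0.31 higher in E (95% interval 0.11 to 0.52) and did not pass (limma adjusted p = 0.156), but it was called with the stricter filter (0.0468) and with the variance trend (0.0469). Hif1an was 0.20 higher in BC (95% interval 0.02 to 0.38) and did not pass (limma adjusted p = 0.212). In D2 and in I none of the 8 genes passed. Egln3 was 0.59 higher in I (95% interval 0.19 to 0.99, limma adjusted p = 0.167). Egln1 was 0.20 higher there (95% interval 0.0007 to 0.41, limma adjusted p = 0.296). In D2 0% of all probe sets were called, although 5 to 861 were under some alternative settings, and in I 0.41% were lower and 0.0632% higher.

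The lower Egln3 in BC kept its call under the 7 alternatives that gave a value, with adjusted p-values between 0.000781 and 0.0405. The call of Egln1 was lost without D2 (adjusted p = 0.0708) and without E (0.115). Over the experiments as a whole, the F of Egln3 was not called without BC (adjusted p = 0.148), and that of Egln1 was not called without BC (0.428), without D2 (0.0810), without E (0.112) or with no intensity filter (0.0745).

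**Figure D3:**
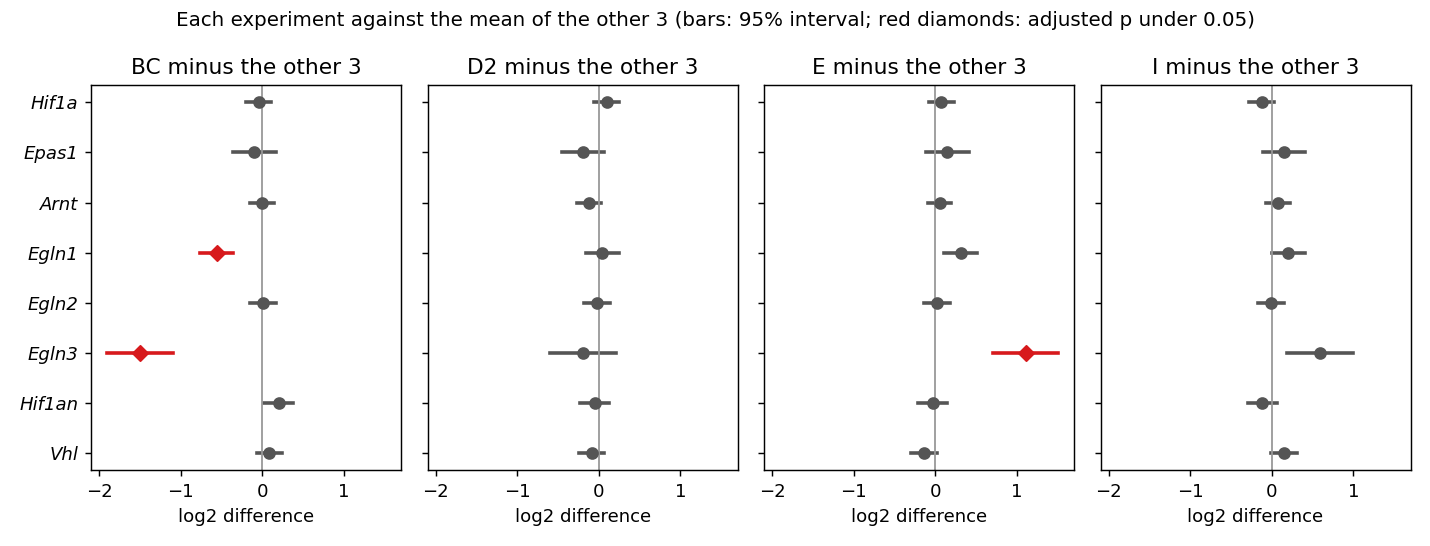
Each experiment minus the mean of the other 3 (log2) for the 8 tested genes, 1 panel per experiment, with 95% intervals as bars and red diamonds for an adjusted p under 0.05. Egln3 and Egln1 are lower in BC and Egln3 is higher in E. Without a call, the bars of Egln3 in I, Egln1 in E and in I, and Hif1an in BC lie above 0. All other bars include 0.

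The upstream sequences of the Egln genes are shown because 2 of these 3 related genes differed between the experiments and Egln2 did not pass. The HIF response element has the core letters ACGTG or GCGTG, and these were searched on both strands of the 250 bases before each gene's start in RefSeq (build GRCm38.p6). Sequences run 5′ to 3′ on the gene's strand, and capitals mark the matches. Egln3 (chr12:54203875-54204124, minus strand) had 1 match, Egln1 (chr8:124949255-124949504, minus strand) 2, and Egln2 (chr7:27166803-27167052, minus strand) 4.
Egln3: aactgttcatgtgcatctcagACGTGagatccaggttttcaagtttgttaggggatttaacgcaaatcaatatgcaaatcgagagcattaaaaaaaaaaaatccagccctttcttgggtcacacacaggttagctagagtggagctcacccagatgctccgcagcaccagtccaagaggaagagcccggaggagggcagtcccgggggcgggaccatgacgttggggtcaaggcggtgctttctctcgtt
Egln1: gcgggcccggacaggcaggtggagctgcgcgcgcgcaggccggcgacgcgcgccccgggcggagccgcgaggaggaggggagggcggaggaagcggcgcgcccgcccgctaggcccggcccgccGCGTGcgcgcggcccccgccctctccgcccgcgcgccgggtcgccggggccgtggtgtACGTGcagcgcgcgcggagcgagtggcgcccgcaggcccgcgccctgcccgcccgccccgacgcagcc
Egln2: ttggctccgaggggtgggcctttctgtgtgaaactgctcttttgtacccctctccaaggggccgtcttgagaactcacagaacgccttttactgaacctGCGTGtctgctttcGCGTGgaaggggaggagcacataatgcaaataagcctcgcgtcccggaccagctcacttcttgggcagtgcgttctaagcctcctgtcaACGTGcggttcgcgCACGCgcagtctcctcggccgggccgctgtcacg
Of the 9 genes 8 had an entry, and 6 of these 8 had a match in 1 window or more. Such letters occurred in 38.6% of all 32851 windows of this length and in the windows of 41.5% of genes. The GC content of the windows was 50.8% for Egln3, 86% for Egln1 and 59.2% for Egln2. Egln2 had more matches than Egln3, in a second window of Egln2 1 match was found, and a match of 5 letters is no measured binding site.

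Egln3 and Egln1 are both HIF target genes, and other genes of a list of known HIF targets were also lower in BC. The list held 50 symbols, of which 44 were on the arrays and 38 were tested. It was drawn up with earlier results of these data known. In BC 13 of the 38 were lower and 0 higher (limma, adjusted p under 0.05), or 11 of 36 without Egln1 and Egln3, against 1.14% of all probe sets. The median difference of these 36 was −0.26, with 29 below 0, against 0.0176 over all probe sets. In E 4 of the 36 were higher, with a median of 0.19, against 0.892% of all probe sets. In I 1 was higher, against 0.0632% of all probe sets, and in D2 none was called. The count of 13 was 4 without D2, 3 without E and 8 with no intensity filter, and between 11 and 18 under the other 5 alternatives. The 5 called in E, Egln3 included, were 0 without BC, 1 with no intensity filter, 12 with a stricter filter and 15 with a variance trend.

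Ak4, a mitochondrial adenylate kinase gene, measured 4.85 with SCF and 5.45 in medium in BC, and between 6.38 and 7.08 on the other 6 arrays. It was 0.342-fold in BC relative to the other 3 experiments (limma adjusted p = 0.00645). Pfkl, a phosphofructokinase gene, was 0.624-fold (adjusted p = 0.0106), and Ero1a, an oxidase gene of disulphide formation, was 0.628-fold (0.0222). Vegfa, the angiogenic factor, was 0.683-fold in BC (adjusted p = 0.0488) and 1.61-fold in E (0.0355). Pdk1, a pyruvate dehydrogenase kinase gene, was 0.703-fold in BC (adjusted p = 0.0367). The remaining called genes besides Egln1 and Egln3 were Bnip3, P4ha1, Hk2, Mif, Slc2a1 and Pgam1. The other 25 tested HIF targets were not called in BC. The glycolytic genes Pgk1 and Gapdh, among the genes picked after their values were seen, stood at 0.936-fold (adjusted p = 0.429) and 0.998-fold (0.987). Car9, picked in the same way, was at 1.15-fold (0.128).

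**Figure D4:**
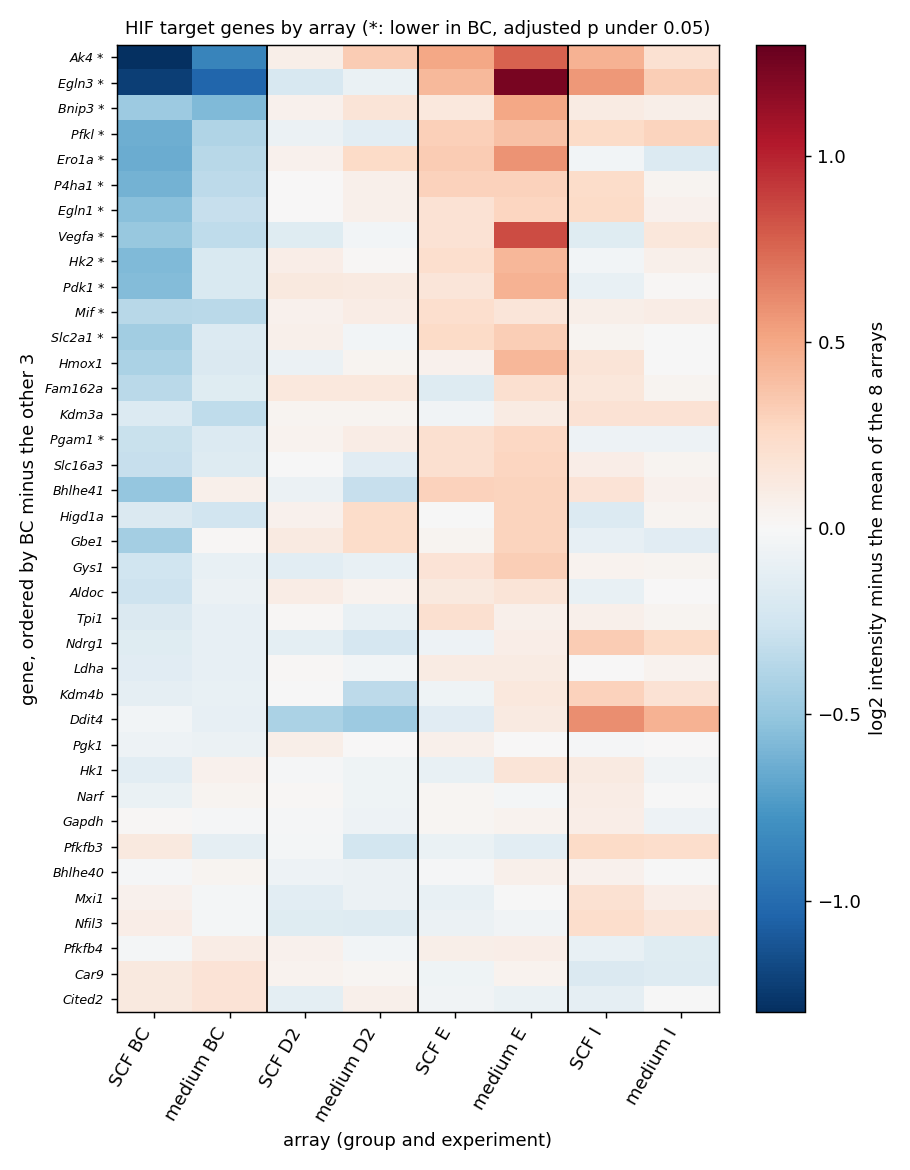
Log2 intensity of the 38 tested HIF target genes minus each gene's mean over the 8 arrays, with arrays in pairs by experiment (SCF left, medium right) and genes ordered by the difference of BC from the other 3. The 13 genes with a star are lower in BC, and the darkest blue cells are those of Ak4 and Egln3 on the BC arrays.

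With SCF none of the 38 HIF targets passed. An unadjusted limma p under 0.05 was found for 3 of them, against 533 of all 12668 probe sets tested. Of all probe sets tested 6274 were below 0 and 6394 above. Of the 38 targets 27 were below 0 and 11 above, with a median of −0.05. The smallest p-values among those outside the 9 genes were those of Vegfa at −0.31 (SE 0.09), Pdk1 at −0.19 (SE 0.07) and Gbe1, a glycogen branching enzyme gene, at −0.20 (SE 0.08), each with a limma adjusted p of 0.945.

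In the machinery around HIF the shares of genes called are read against all probe sets, of which 3.35% were called by the F over experiments and 1.14% were lower in BC. A list around the VHL ubiquitin ligase held Vhl, the elongins, the cullins Cul2 and Cul5, Nedd8 and ubiquitin-conjugating enzyme genes of the Ube2d group. Of its 9 tested genes 0 passed in either comparison, and the medians were −0.04 with SCF and 0.01 in BC. Eloc, the gene of elongin C, had the smallest p between experiments (limma F, adjusted p = 0.0786), with means that spanned 0.60. Among 25 tested HIF partners, coactivators and stability factors, 1 gene, Wsb1, was called between experiments, a share near that of all probe sets. Wsb1, the gene of a ubiquitin ligase subunit reported to target VHL in human cells, was 0.756-fold in BC (limma adjusted p = 0.0307). A list of other dioxygenases, most of which use 2-oxoglutarate, had 23 tested genes. Of these P4ha1, the collagen prolyl hydroxylase gene, was 0.645-fold in BC (limma adjusted p = 0.0261) and no other was called, again a share near that of all probe sets. Kdm3a, a histone demethylase gene of that list, was 0.33 lower in BC and did not pass (adjusted p = 0.0630). None of 20 genes of 2-oxoglutarate, succinate and fumarate metabolism, which supply or inhibit these enzymes, was called, with Idh3a nearest (limma F, adjusted p = 0.0786). Of 8 genes of the signalling that transcribes Hif1a in myeloid cells, Tlr4 was 0.762-fold in BC (limma adjusted p = 0.0473), and its F over the experiments did not pass (0.0571). In all of these lists 0 genes were called with SCF.

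Markers of the cells themselves also differed between the experiments. All 10 dendritic cell markers on the arrays passed the intensity filter, among them Itgax, the CD11c gene, as did 9 of 9 macrophage markers. None of the dendritic cell markers was called between experiments, and their summed intensity was 7371 and 7172 on the SCF and medium arrays of BC, against 7282 to 7608 on the other 6. The macrophage sum was 3604 and 4034 in BC, 4083 and 3805 in D2, 4550 and 4804 in E, and 3981 and 3917 in I. Of the 9 macrophage markers 3 were higher in E, against 0.892% of all probe sets, namely Cd14 at 2.08-fold, Fcgr1 at 1.68-fold and C1qb at 1.60-fold. Cd14 was lower in BC at 0.669-fold (limma adjusted p = 0.0373), where 1.14% of all probe sets were lower. These 3 genes were not called in I, where Cd14 was 0.672-fold (limma adjusted p = 0.0608), Fcgr1 0.656-fold (0.0685) and C1qb 0.822-fold (0.215). The mast cell and basophil sum was 246 and 253 in BC, 185 and 193 in D2, 211 and 219 in E, and 241 and 243 in I. This sum includes Kit, the gene of the SCF receptor, with its lowest mean at 6.41 (D2) and its highest at 6.96 (I). Kit differed over the experiments (limma F, adjusted p = 0.0412) but was not called in any single experiment against the rest. Whether the sum followed mast cells or Kit in other cells was not tested. Of that list Cpa3 was 1.55-fold in BC (limma adjusted p = 0.0398), where 1.2% of all probe sets were higher, while 7 of 10, among them Fcer1a and Mcpt8, lay below the filter. Below the filter were also 8 of 10 neutrophil, 6 of 8 lymphocyte and 3 of 3 erythroid markers. The part of these markers in the differences of Egln3 and Egln1 was not tested. In such bulk samples fewer cells of a type and less RNA per cell cannot be told apart.

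Genes whose pattern over the 8 arrays was most like that of each of the 8 tested genes were found by Pearson's r among 11351 genes, as a description of 4 pairs of arrays that share their cells. For Egln1 these were P4ha1 (r = 0.992) and Ak4 (r = 0.990), both on the list of HIF targets. For Egln3 they were Hpse, the heparanase gene (r = 0.975), and Got1, the cytosolic aspartate aminotransferase gene (r = 0.965). Hpse read 6.73 and 6.84 on the SCF and medium arrays of BC, against 7.21 to 7.63 on the other 6. Got1 varied little, between 9.14 and 9.37 on the 8 arrays, and was not called between experiments (limma F, adjusted p = 0.308). Egln1 and Egln3 correlated with each other at 0.947. The genes nearest to Hif1a were Tvp23b (0.977) and Eif4e (0.975), and those nearest to Vhl were Gm6713 (0.978) and Chd3 (0.976). For Epas1 they were Sema5b (0.948) and Exoc3l (0.946), for Hif1an Prr13 (0.964) and Urb2 (0.960), for Arnt Mir3110 (0.943) and Olfr1360 (0.938), and for Egln2 Gsx1 (0.924) and Ap1s1 (0.910). Where a gene hardly varied, as Egln2 and Arnt did, such an r follows small differences between arrays.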

How the data were processed

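RNA of 8 cultures, 4 with SCF and 4 in medium, was read on 1-colour Affymetrix arrays. The deposited values are RMA intensities, per the submitters' processing notes, and are linear, with array medians of 13.3 to 13.9. No source used here gives RMA's version, software or filter. Log2 was taken with no pseudocount. Of 41345 probe sets, 23521 had 1 symbol in the platform annotation, 1814 several and 16010 none, and all 9 members matched RefSeq by Entrez number. With no detection call given, probe sets with a symbol were tested where their mean log2 reached the median of those means (4.05), which left 12668 probe sets of 11351 genes. Signal over background is unknown, and precision is limited by having 4 arrays per group.

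Groups and experiments came from the titles. The design text states that each experiment's cells were purified together, and with group means removed, both arrays of an experiment correlated at 0.36 to 0.46, so experiment was a fixed block. SCF and medium were compared with lmFit and eBayes in limma 3.58.1 (R 4.3.3), with 3 residual degrees of freedom (7.39 with the prior), two-sided, Benjamini-Hochberg over all probe sets tested, threshold 0.05. Experiments were compared by the F in the same fit and by contrasts of each with the mean of the other 3, each adjusted over all probe sets. Intervals are at 95%, unadjusted. Scripts were tested on simulated data. The alternatives were other scalings, filters, a variance trend, other treatments of the block, the mean of a gene's probe sets, and leaving out each experiment.

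The members and gene lists were chosen with earlier results of these data known. Named were the members, up to 3 genes per list with the smallest p in either comparison, and the 2 genes most like each tested member. Other genes, such as the remaining called HIF targets and the markers, were named after their values were seen.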

Additional observations from a re-analysis of the deposited data

Results flagged for a closer look

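Of 102 groups of 4 arrays examined, over 51 named genes, 4 held an array whose gap to its nearest neighbour, as a share of the group's whole range, was above Dixon's 95% critical value, where chance gives about 5.1. For Arnt, the SCF array of D2 stood at 7.67, against 7.84 to 7.86 on the other SCF arrays. In the same array Mir3110 stood at 6.66, against 7.16 to 7.22, and Olfr1360 at 4.67, against 5.46 to 5.56. Both were named because their pattern is most like that of Arnt, so these flags are not separate from it. For Ube2d1, a ubiquitin-conjugating enzyme gene, the medium array of D2 stood at 8.32, against 8.15 to 8.18 on the other medium arrays.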

How the results depend on the processing

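SCF called 0 probe sets under all 11 alternatives, among them the fit with no replicate block and that with experiment as a random replicate block. Of 93 alternative values of the 8 tested changes, none was called (lowest adjusted p = 0.785) and 86 kept their sign. The sign turned for Vhl at −0.0051 with array medians equalized. Leaving out 1 experiment gave −0.0498 to 0.0062 for Arnt, −0.135 to 0.0096 for Egln1, −0.0118 to 0.0598 for Egln2, −0.151 to 0.0529 for Epas1, −0.0207 to 0.0855 for Hif1an and −0.0335 to 0.0402 for Vhl. The number of probe sets that differed between experiments, 424, was 194 with no intensity filter, 1396 with a stricter one and 1527 with a variance trend, and 38 to 177 with 1 experiment left out. The 296 that differed in BC were 128, 617 and 705 under these settings, and 31 to 379 with 1 experiment left out. In D2 the count of 0 was 861 with the stricter filter, 712 with the trend and 21 with equalized medians, and 0 to 70 with 1 experiment left out. In E the 138 were 390 with the stricter filter and 469 with the trend, and 54 to 272 with 1 experiment left out. In I the 60 were 111 with equalized medians, 38 after repeated quantile normalization, 31 with no filter, 415 with the stricter filter and 451 with the trend, and 0 to 286 with 1 experiment left out. Counts of HIF targets under these settings were chosen after seeing the data. The stricter filter tests fewer probe sets and left out Egln3, Epas1 and Hif1an. The cause of the other moves was not tested.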
